A study of Mus musculus with 12 samples.

Results

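The 48 genes described here drive the cell cycle and the copying of DNA, and were picked by symbol from the 24054 genes counted in mouse normal colon and colon tumours. They divide into 22 replication (S phase) genes, 24 mitotic genes and the 2 D cyclin genes Ccnd1 and Ccnd2. RNA was sequenced from 12 libraries, 4 per group. BTPRZ-T libraries came from tumours with the genotype BrafV600E;Tgfbr2-/-;Rnf43-/-/Znrf3-/-;p16 Ink4a-/-, BT-T libraries from tumours with the genotype BrafV600E;Tgfbr2-/-, and N libraries from wild type normal colon. The BTPRZ-T tumours thus share the active Braf kinase allele and the loss of the TGF-beta receptor gene Tgfbr2 with BT-T, and also lack the ubiquitin ligases Rnf43 and Znrf3, which remove WNT receptors, and the CDK inhibitor p16 Ink4a. Tumours were engrafted, the series title names edited colonic organoids as the model, and the design text calls the normal tissue adjacent. All 12 libraries carry the strain label NSG, an immunodeficient mouse that lacks mature lymphocytes, so the tumours grew without them. Whether replicates stem from separate mice or edited clones is not stated in the labels, so p-values measure only the spread between these samples, which may be technical.

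Cells enter the cycle when D cyclins and their kinase partners phosphorylate the retinoblastoma protein, which frees E2F factors to switch on replication genes; p16 Ink4a blocks those kinases. Replication then runs in steps: Cdc6 and Cdt1 load the MCM helicase onto origins, geminin (Gmnn) holds Cdt1 back after firing, and ribonucleotide reductase, thymidylate synthase and thymidine kinase supply nucleotides. Mitotic genes come on later, under the transcription factors Mybl2 and Foxm1, and their products (cyclin B with Cdk1, Aurora and Polo kinases, kinesins, centromere proteins) build the spindle and part the chromosomes. In the colon, cycling cells lie near the base of the crypts.

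The promoters of both classes hold different sequence words. In RefSeq promoter windows on GRCm38.p6, running from 250 bases before to 50 bases after the gene start, 38 of the 48 genes had an entry. The words searched, on both strands, were the E2F words TTTCCCGC, TTTCGCGC, TTTGCCGC and TTTGGCGC, the CHR words TTTGAA and TTCGAA (the element of late cell cycle promoters), and CCAAT. An E2F word stood in 9 of 19 replication promoters (47.4%) and in 1 of 19 mitotic promoters (5.26%), against 4.25% of the 11132 tested genes with a window and 2.6% of all 27025 genes with one. A CHR word stood in 5 of 19 replication promoters (26.3%) and in 14 of 19 mitotic promoters (73.7%), against 16.4% of tested genes and 21.7% of all genes. CCAAT stood in 68.4% of the replication and 84.2% of the mitotic promoters, against 42.0% of tested genes. The 9 replication genes with an E2F word were Cdk2, Cdc6, Cdt1, Mcm3, Mcm5, Mcm6, Mcm7, E2f2 and E2f7, and the mitotic gene with one was Cdk1. Ccna2, Ccnd1, Ccnd2, Ccne2, Aurkb, Gmnn, Mcm4, Foxm1, Kif20a and Tpx2 had no entry. A match describes the letters of the window and is not evidence of binding.

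The 3 replication promoters printed here belong to licensing genes whose levels are compared between the tumour groups below: Mcm6 at chr1:128359656-128359955 on the minus strand, Mcm5 at chr8:75109259-75109558 on the plus strand, and Cdt1 at chr8:122567765-122568064 on the plus strand. They are written from 5′ to 3′ with every match to an E2F, CHR or CCAAT word in capitals. Mcm6 holds 3 E2F and 2 CCAAT words, Mcm5 holds 2 E2F and 3 CCAAT words, and Cdt1 holds 1 E2F word. In Mcm6 and in Mcm5, 1 run of capitals holds 2 E2F words that overlap on opposite strands.
Mcm6: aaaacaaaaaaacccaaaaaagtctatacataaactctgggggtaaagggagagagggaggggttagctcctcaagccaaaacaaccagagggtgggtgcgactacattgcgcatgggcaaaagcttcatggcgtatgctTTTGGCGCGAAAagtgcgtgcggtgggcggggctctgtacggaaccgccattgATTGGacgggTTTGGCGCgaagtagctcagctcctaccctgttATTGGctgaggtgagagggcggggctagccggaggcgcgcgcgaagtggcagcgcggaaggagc
Mcm5: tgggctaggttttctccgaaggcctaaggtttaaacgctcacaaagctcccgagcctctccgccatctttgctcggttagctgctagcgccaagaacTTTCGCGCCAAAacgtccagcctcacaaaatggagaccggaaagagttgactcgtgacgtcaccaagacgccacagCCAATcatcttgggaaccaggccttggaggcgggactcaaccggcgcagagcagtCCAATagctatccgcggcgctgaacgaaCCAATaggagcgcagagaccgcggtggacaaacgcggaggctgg
Cdt1: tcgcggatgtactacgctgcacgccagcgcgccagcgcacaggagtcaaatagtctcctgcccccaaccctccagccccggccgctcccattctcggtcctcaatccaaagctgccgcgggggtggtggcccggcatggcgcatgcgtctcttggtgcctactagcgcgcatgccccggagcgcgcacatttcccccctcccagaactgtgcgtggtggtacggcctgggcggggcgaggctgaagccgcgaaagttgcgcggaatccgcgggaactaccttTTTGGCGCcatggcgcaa

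The 3 mitotic promoters printed for contrast are those of Cdc20 at chr4:118437294-118437593 on the minus strand, Plk1 at chr7:122159185-122159484 on the plus strand and Cdk1 at chr10:69352863-69353162 on the minus strand. Cdc20 holds 1 CHR and 2 CCAAT words and Plk1 1 CHR and 1 CCAAT word, with no E2F word in either, while Cdk1 holds 2 CHR words, 3 CCAAT words and 1 E2F word.
Cdc20: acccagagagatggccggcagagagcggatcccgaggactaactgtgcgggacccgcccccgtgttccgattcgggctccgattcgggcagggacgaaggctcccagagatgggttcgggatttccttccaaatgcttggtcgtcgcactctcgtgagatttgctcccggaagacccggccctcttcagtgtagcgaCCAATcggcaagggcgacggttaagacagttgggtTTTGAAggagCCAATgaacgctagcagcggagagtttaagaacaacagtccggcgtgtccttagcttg
Plk1: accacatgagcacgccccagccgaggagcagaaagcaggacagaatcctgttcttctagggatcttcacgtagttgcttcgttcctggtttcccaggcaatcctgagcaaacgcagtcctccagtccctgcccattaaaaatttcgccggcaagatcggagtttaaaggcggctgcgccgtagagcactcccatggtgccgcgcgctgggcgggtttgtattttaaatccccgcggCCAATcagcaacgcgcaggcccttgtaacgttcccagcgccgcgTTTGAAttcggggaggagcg
Cdk1: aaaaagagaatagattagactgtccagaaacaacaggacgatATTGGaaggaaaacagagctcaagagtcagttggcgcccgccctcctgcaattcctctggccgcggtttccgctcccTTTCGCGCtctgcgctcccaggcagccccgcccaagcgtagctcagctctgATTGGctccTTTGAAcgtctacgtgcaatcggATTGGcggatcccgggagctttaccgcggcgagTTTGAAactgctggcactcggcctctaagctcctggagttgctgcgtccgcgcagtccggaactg

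Libraries held 15732004 to 26052772 gene reads, and all 48 genes passed the filter on low counts. Levels are CPM, a gene's reads scaled to library size with TMM factors, and serve to compare 1 gene between libraries; between genes, levels are compared per kb of transcript. One library stood apart. In N replicate 2, the ribosomal protein share was 10.83%, beside 1.561 to 1.91% for N replicates 1, 3 and 4, and the slope of its levels on log2 transcript length was -0.787, beside 0.182 to 0.286. BTPRZ-T libraries lay between, with 3.593 to 8.984% ribosomal protein reads and slopes of -0.472 to 0.065, and BT-T libraries had 1.833 to 2.688% and 0.043 to 0.281. Counts of called genes are therefore also given without N replicate 2, as are many of the values it moves. Tissue composition differed too. Summed fibroblast markers (10 genes) covered 1900 to 8610 CPM in BTPRZ-T, then 8700 to 17000 in BT-T and 1260 to 2050 in N. Epithelial markers (8 genes) covered 7710 to 16300 CPM in BTPRZ-T, 8870 to 10700 in BT-T and 10500 to 12700 in N, and colonocyte and goblet markers (12 genes) 5810 to 13100, 5440 to 6830 and 14900 to 59700 in the same order. Crypt stem markers (8 genes) summed to 504 to 693 CPM in BTPRZ-T, 394 to 462 in BT-T and 276 to 467 in N. Macrophage markers (10 genes) summed to 328 to 2860 CPM in BTPRZ-T, 1080 to 1960 in BT-T and 89.4 to 454 in N, smooth muscle markers (10 genes) to 596 to 5170, 4080 to 6610 and 8370 to 19800, and endothelial markers (8 genes) to 302 to 622, 425 to 809 and 124 to 241. Lymphoid markers (10 genes) summed to at most 17.5 CPM in any library, and Cd3d, Cd3g and Ncr1 had no read in any. In whole tissue, fewer cells of a type and less RNA per cell cannot be told apart. The part of tissue composition in the results below was not tested. Of the edited genes, Cdkn2a, which encodes p16 Ink4a and p19 Arf, had 18.8 to 31.4 CPM in BTPRZ-T, 8.21 to 15.8 in BT-T and 0.23 to 0.354 in N. Rnf43 had 82.9 to 193 CPM in BTPRZ-T, 56.9 to 87.2 in BT-T and 19.3 to 74.6 in N, Znrf3 16.7 to 37.3, 19.7 to 30.4 and 1.9 to 39.1, Tgfbr2 149 to 271, 314 to 527 and 71.1 to 286, and Braf 14.1 to 57.1, 45.7 to 60.3 and 14.5 to 75.6. A count over the whole gene does not show whether an allele was edited.

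**Figure D1:**
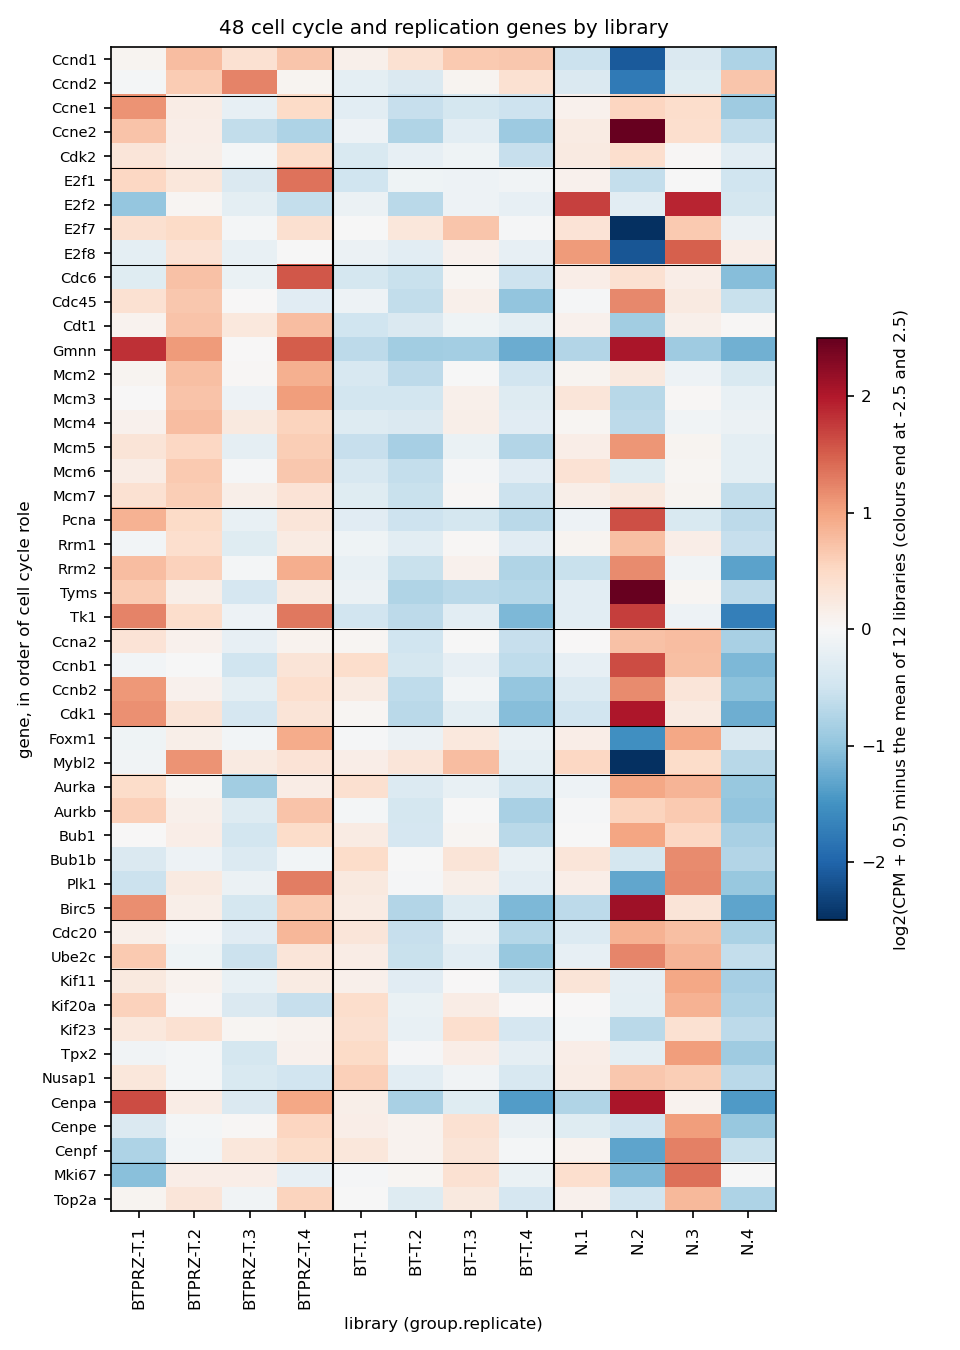
Each row is 1 of the 48 genes in order of cell cycle role and each column a library, with colour for log2(CPM + 0.5) minus the gene's mean over 12 libraries; the colours end at -2.5 and 2.5. The licensing and MCM rows are mostly red in BTPRZ-T and blue in BT-T, and the N replicate 2 column holds the deepest red and blue of the N group.

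In BTPRZ-T against BT-T, 21 of the 22 replication genes had a positive log2 fold change, with a median of 0.76, while 17 of the 24 mitotic genes were positive, with a median of 0.25; over all tested genes 48.6% were positive and the median was -0.03. The difference between the classes was not tested. With all 12 libraries, edgeR's quasi-likelihood test called 0 of the 48 genes at a Benjamini-Hochberg adjusted p under 0.05, where it called 0.754% of 14860 tested genes. At an unadjusted p under 0.05, 13 genes were higher in BTPRZ-T, all of them replication genes, and none was lower, against 7.12% of all tested genes higher and 10.1% lower. DESeq2 called 4 of the 48 genes, all higher in BTPRZ-T (Cdt1, Gmnn, Mcm2 and Mcm6), against 2.23% of all genes higher, and limma with voom called 0, against 1.79% of all genes. In 9 genes, all of the replication class, every BTPRZ-T library lay above every BT-T library, against 11.5% of all tested genes, and in none did every BTPRZ-T library lie below, against 12.7%.

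N replicate 2 takes no part in this comparison's levels, but it enters the estimate of the spread that all 12 libraries share. Without it the fold changes stayed the same within 0.01 log2 units, and 9 of the 48 genes were called, all higher in BTPRZ-T and all of the replication class: Gmnn, Cdt1, Mcm5, Pcna, Mcm2, Tk1, Mcm4, Mcm6 and Mcm7. In the same fit 9.81% of all 15045 tested genes were called higher and 8.23% lower. The share called higher was 40.9% of the 22 replication genes while 0 of the 24 mitotic genes were called. Over all 48 genes the share called was 18.8%, close to the sum of both shares over all genes. When BTPRZ-T and BT-T were fitted alone, with no N library, 5 genes were called higher (Gmnn, Mcm5, Mcm7, Pcna and Tk1) and 0 lower, against 5.18% of all tested genes higher. Other measures separated these groups too. The crypt stem marker sum and the ribosomal protein share were higher in every BTPRZ-T library than in every BT-T library. The fibroblast marker sum was lower. Of the 8 crypt stem markers taken singly, 6 had a positive log2 fold change and 2 a negative one, and 1 did not overlap in each direction. All 10 fibroblast markers were negative, and 6 did not overlap. The part of these measures in the result was not tested.

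**Figure D2:**
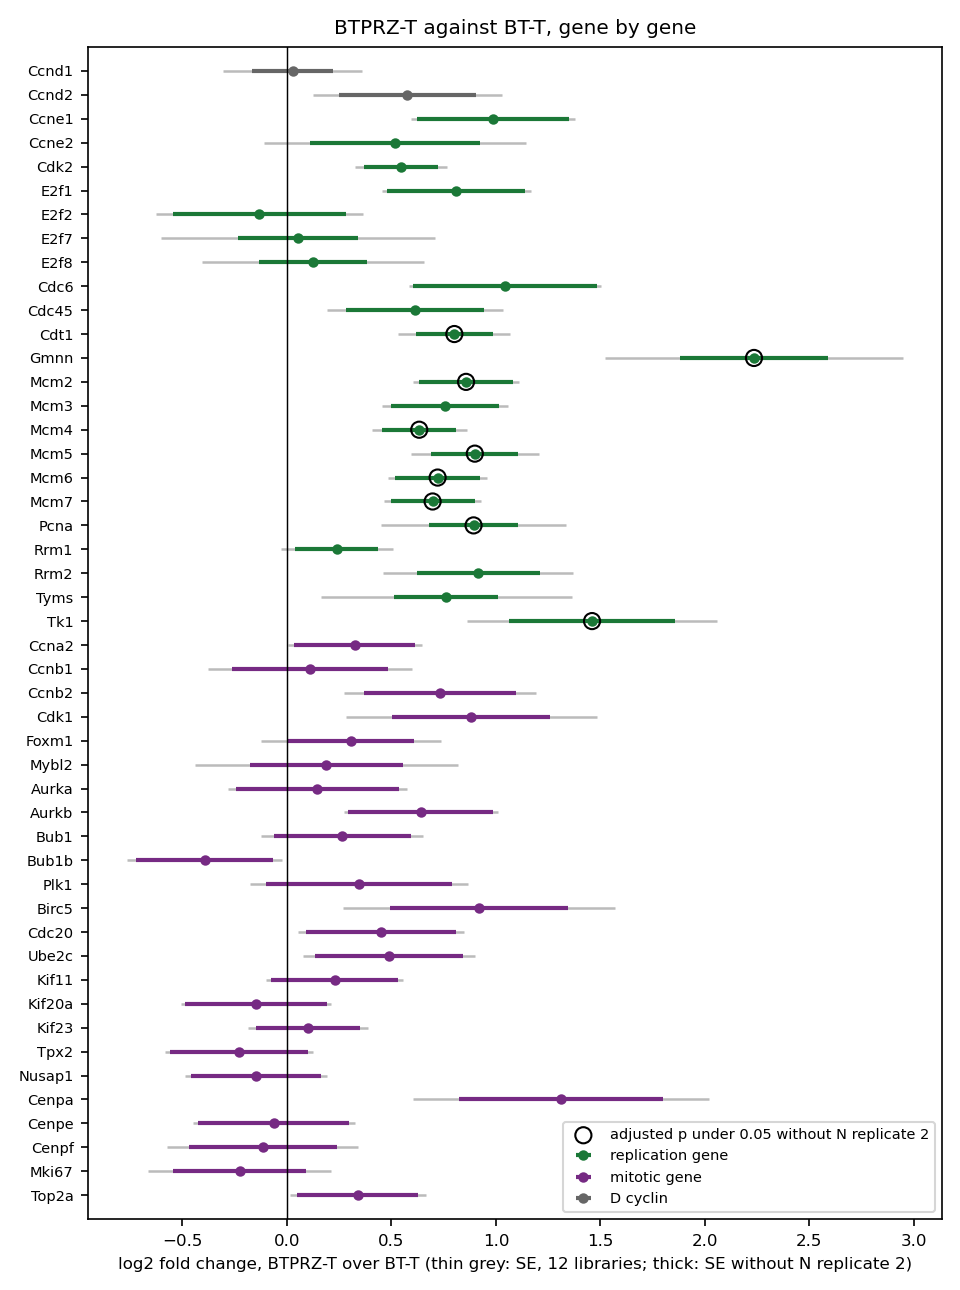
Points give the log2 fold change of BTPRZ-T over BT-T for each of the 48 genes, with thin grey bars for the standard error from 12 libraries and thick bars for that without N replicate 2; rings mark the 9 genes with an adjusted p under 0.05 without N replicate 2. Replication genes (green) lie right of 0 except E2f2, and mitotic genes (purple) lie on both sides of 0.

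All 10 licensing genes were positive in BTPRZ-T against BT-T, and 9 of them had an unadjusted p under 0.05. Gmnn, which encodes geminin, the inhibitor of Cdt1, lies at chr13:24751845-24761923 on the minus strand (GENCODE M21, GRCm38). It had 37.4, 21.7, 10.2 and 29.8 CPM in BTPRZ-T libraries, 6.31, 5.31, 5.37 and 4.00 CPM in BT-T libraries, and 5.93, 43.2, 5.26 and 4.12 CPM in N libraries, in replicate order as throughout. The lowest BTPRZ-T library stood above every BT-T library and above N replicates 1, 3 and 4, while N replicate 2 stood above all BTPRZ-T libraries. The log2 fold change of BTPRZ-T over BT-T was 2.23 ± 0.71 (SE; adjusted p = 0.146 by edgeR), and 2.23 ± 0.36 without N replicate 2 (adjusted p = 0.00484). Gmnn has the shortest transcript of the 48 genes, 1127 bases, which bears on the length trend given further on. Cdt1, the loading factor that geminin binds, had 27.6, 43.3, 31.2 and 45 CPM in BTPRZ-T, 18.2, 20.1, 24.2 and 21.9 CPM in BT-T, and 28.0, 14.01, 28.5 and 26.6 CPM in N. BTPRZ-T did not overlap BT-T, and BT-T lay below N replicates 1, 3 and 4. Its log2 fold change was 0.80 ± 0.27 (adjusted p = 0.163), and 0.80 ± 0.19 without N replicate 2 (adjusted p = 0.0153). Cdc6, the ATPase that recruits Cdt1 to origins, averaged 15.1 ± 9.79 CPM in BTPRZ-T and 7.31 ± 1.64 CPM in BT-T (SD, n = 4 each), with 28.6 CPM in BTPRZ-T replicate 4 alone above the other BTPRZ-T values of 7.49 to 15.9. Cdc45, a helicase cofactor, averaged 11.1 ± 3.37 CPM in BTPRZ-T and 7.25 ± 2.57 CPM in BT-T, and these groups overlapped.

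Each of the 6 MCM helicase subunits had a positive log2 fold change in BTPRZ-T against BT-T, between 0.63 (Mcm4) and 0.90 (Mcm5), and each had an unadjusted p under 0.05. Mcm2 had 62.0, 100.4, 60.5 and 110.8 CPM in BTPRZ-T, 44.8, 37.6, 59.0 and 42.8 CPM in BT-T, and 62.1, 70.6, 54.4 and 45.8 CPM in N. The lowest BTPRZ-T library stood just above the highest BT-T library, and N overlapped with both. The log2 fold change of Mcm2 was 0.86 ± 0.26 (adjusted p = 0.124; 0.0254 without N replicate 2). Mcm6 had 98.6, 136.0, 85.0 and 138.6 CPM in BTPRZ-T, 65.2, 57.1, 84.9 and 70.8 CPM in BT-T, and 111.7, 69.7, 89.3 and 72.8 CPM in N. BTPRZ-T replicate 3, at 85.0 CPM, and BT-T replicate 3, at 84.9 CPM, all but met. The log2 fold change of Mcm6 was 0.72 ± 0.24 (adjusted p = 0.157; 0.0325 without N replicate 2). Mcm7 averaged 75.2 ± 9.96 CPM in BTPRZ-T and 46.4 ± 9.29 CPM in BT-T with no overlap (log2 fold change 0.70 ± 0.23, adjusted p = 0.159; 0.0344 without N replicate 2). Mcm5 averaged 78.4 ± 18.3 CPM in BTPRZ-T and 42.0 ± 9.26 CPM in BT-T, and Mcm4 averaged 67.3 ± 14.2 CPM in BTPRZ-T and 43.4 ± 7.61 CPM in BT-T. In Mcm5, Mcm4 and Mcm3 the groups overlapped, each time at BT-T replicate 3, the highest BT-T library; BTPRZ-T replicate 3 lay below it in Mcm5, replicate 1 in Mcm4, and both in Mcm3. Without N replicate 2 all MCM subunits but Mcm3 (adjusted p = 0.0635) passed the threshold, 5 of 6.

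Among genes of nucleotide supply and the replication clamp, all 5 were positive in BTPRZ-T against BT-T. Tk1, which salvages thymidine, had 54.1, 30.9, 20.5 and 57.5 CPM in BTPRZ-T, 16.1, 14.1, 18.9 and 10.2 CPM in BT-T, and 18.8, 75.7, 20.8 and 6.61 CPM in N. BTPRZ-T stood above BT-T in every library, and N replicate 2 stood above both tumour groups. The log2 fold change was 1.46 ± 0.60 (adjusted p = 0.246; 0.0275 without N replicate 2). Pcna, the sliding clamp of DNA polymerase, had 121.2, 93.2, 58.2 and 82.2 CPM in BTPRZ-T, 54.3, 46.4, 49.0 and 41.3 CPM in BT-T, and 60.9, 203.9, 51.2 and 42.1 CPM in N. Here too the tumour groups did not overlap and N replicate 2 was far above the rest. The log2 fold change was 0.89 ± 0.44 (adjusted p = 0.32), and 0.89 ± 0.21 without N replicate 2 (adjusted p = 0.0172). Rrm2, the regulated subunit of ribonucleotide reductase, had 58.5, 50.9, 32.9 and 63.8 CPM in BTPRZ-T, 29.9, 22.8, 36.5 and 19.9 CPM in BT-T, and 22.9, 77.6, 31.8 and 13.2 CPM in N. BTPRZ-T replicate 3 lay within the BT-T range and the other BTPRZ-T libraries above it, and the log2 fold change of 0.92 ± 0.46 was not called (adjusted p = 0.319; 0.051 without N replicate 2). Tyms, thymidylate synthase, had 45.6, 32.2, 21.5 and 34.2 CPM in BTPRZ-T, 26.2, 16.9, 17.9 and 17.6 CPM in BT-T, and 24.2, 170.2, 30.1 and 18.3 CPM in N. Its tumour groups overlapped and it was not called (0.76 ± 0.60, adjusted p = 0.514; 0.0548 without N replicate 2). Rrm1, the partner subunit, averaged 78.0 ± 16.8 CPM in BTPRZ-T and 66.2 ± 6.94 CPM in BT-T, with a log2 fold change of 0.24 ± 0.27.

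**Figure D3:**
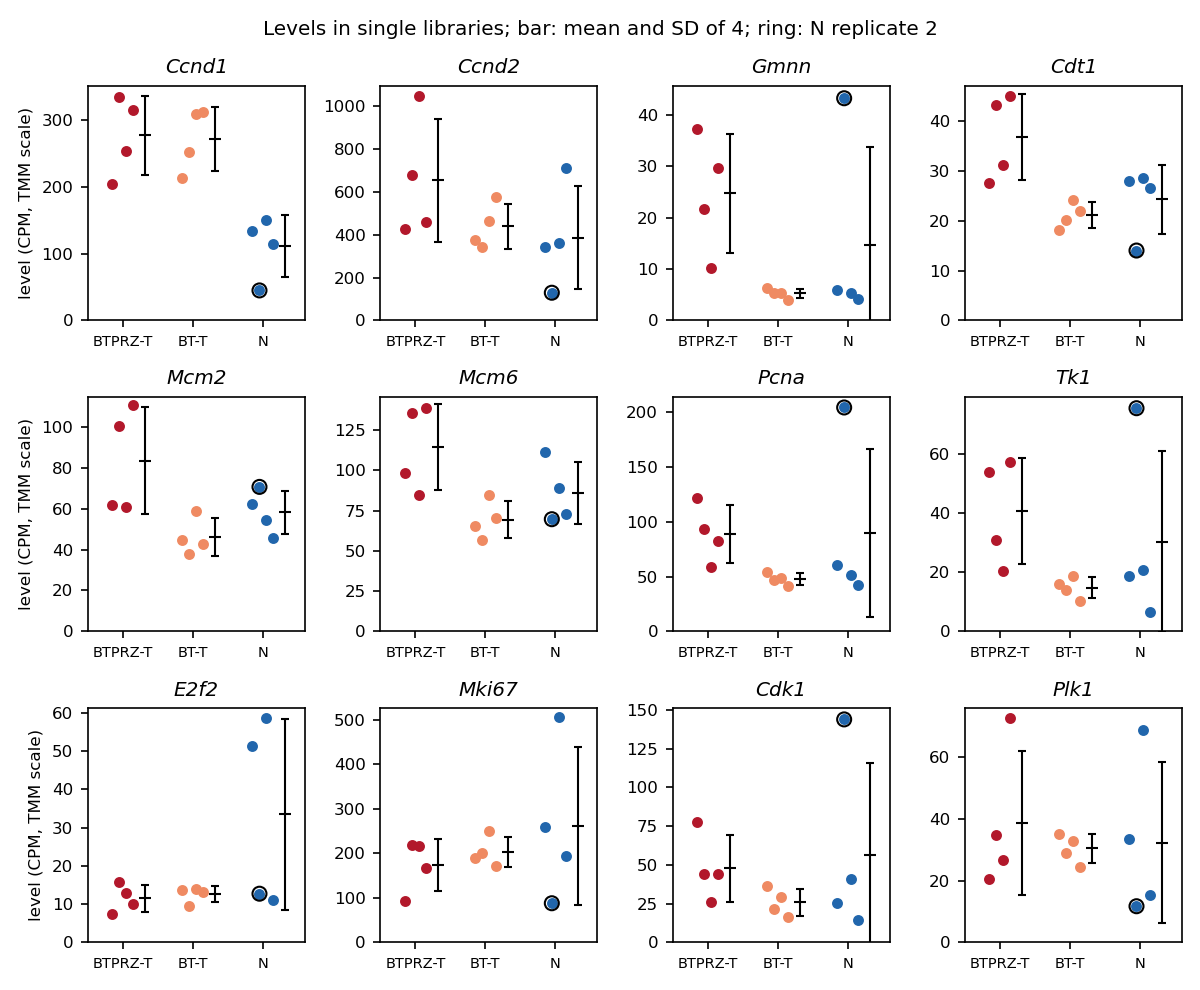
CPM in single libraries for 12 genes, with BTPRZ-T left of BT-T and N on the right of each panel; bars give the mean and SD of 4 libraries, drawn down to 0 where the SD exceeds the mean, and rings mark N replicate 2. In Gmnn, Cdt1, Mcm2, Mcm6, Pcna and Tk1 every BTPRZ-T point lies above every BT-T point, and in Ccnd1 both tumour groups lie above N.

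In the kinase complex that starts S phase, all 3 genes were positive in BTPRZ-T against BT-T. Ccne1, cyclin E1, had 17.5, 8.86, 6.61 and 11 CPM in BTPRZ-T, 6.38, 5.02, 5.54 and 5.22 CPM in BT-T, and 8.40, 11.4, 10.7 and 3.92 CPM in N. All BTPRZ-T libraries stood above all BT-T libraries, the lowest and highest by a narrow gap, and the log2 fold change was 0.99 ± 0.39 (adjusted p = 0.229; 0.0789 without N replicate 2). Ccne2, cyclin E2, had 12.1, 8.09, 4.52 and 4.02 CPM in BTPRZ-T, 6.52, 4.04, 5.87 and 3.60 CPM in BT-T, and 8.29, 43.0, 9.81 and 4.59 CPM in N. These groups overlapped throughout (BTPRZ-T over BT-T 0.52 ± 0.63, adjusted p = 0.681). Cdk2, the partner kinase of cyclin E, averaged 33.8 ± 5.06 CPM in BTPRZ-T and 23.1 ± 3.27 CPM in BT-T with no overlap (0.55 ± 0.22, adjusted p = 0.237; 0.0524 without N replicate 2).

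The 4 E2F factors ranged from -0.13 to 0.81 in BTPRZ-T against BT-T, with a median of 0.09, against 0.76 for the whole replication class. E2f1, an activator, had 16.1, 13.7, 8.59 and 29.3 CPM in BTPRZ-T, 7.77, 10.3, 10.2 and 10.4 CPM in BT-T, and 12.03, 7.24, 11.1 and 7.76 CPM in N. BTPRZ-T replicate 4 was the highest library and BTPRZ-T replicate 3 lay inside the BT-T range (BTPRZ-T over BT-T 0.81 ± 0.36, adjusted p = 0.273). E2f7, an atypical E2F that represses, had 7.81, 8.38, 5.62 and 7.86 CPM in BTPRZ-T, 5.82, 7.26, 9.78 and 5.72 CPM in BT-T, and 7.54, 0.271, 9.51 and 5.20 CPM in N. The tumour groups overlapped (0.05 ± 0.66, adjusted p = 0.971), and N replicate 2 held just 4 reads of this gene. E2f2, also an activator, was the sole replication gene below 0 in this comparison (-0.13 ± 0.50, adjusted p = 0.903). E2f8, the other atypical repressor, averaged 20.7 ± 4.22 CPM in BTPRZ-T and 18.98 ± 2.25 CPM in BT-T (0.13 ± 0.53, adjusted p = 0.914). By promoter word, the 9 replication genes with an E2F word had a median log2 fold change of 0.72 (range -0.13 to 1.04), and the 10 with a window and no such word had 0.83 (range 0.13 to 1.46).

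Mitotic genes overlapped between the tumour genotypes: in none of the 24 did all BTPRZ-T libraries lie above or below all BT-T libraries, and edgeR called none with or without N replicate 2. Mki67, the Ki-67 chromosome coat protein and a marker of cycling cells, had 93.9, 217.9, 216.3 and 167.2 CPM in BTPRZ-T, 189.2, 200.1, 251.5 and 172.5 CPM in BT-T, and 258.8, 88.1, 505.9 and 193.2 CPM in N. Its log2 fold change of BTPRZ-T over BT-T was -0.23 ± 0.44 (adjusted p = 0.807). Top2a, which untangles DNA before division, had 116.1, 136.7, 104.7 and 163.0 CPM in BTPRZ-T, 110.2, 88.1, 130.9 and 82.2 CPM in BT-T, and 120.0, 78.9, 193.8 and 65.1 CPM in N (BTPRZ-T over BT-T 0.34 ± 0.32, adjusted p = 0.593). Both markers had their highest library in N, in replicate 3.

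Cdk1, the kinase that drives entry into mitosis, had 77.6, 43.9, 26.0 and 43.9 CPM in BTPRZ-T, 36.2, 21.6, 29.5 and 16.5 CPM in BT-T, and 25.1, 143.8, 41.1 and 14.7 CPM in N. BTPRZ-T replicate 3 lay within the BT-T range, and the log2 fold change was 0.88 ± 0.60 (adjusted p = 0.461; 0.123 without N replicate 2). Ccnb1, cyclin B1, had 20.1, 20.9, 14.9 and 26.8 CPM in BTPRZ-T, 29.1, 15.6, 18.4 and 13.5 CPM in BT-T, and 18.4, 66.9, 36.3 and 9.52 CPM in N (BTPRZ-T over BT-T 0.11 ± 0.49, adjusted p = 0.917). Plk1, Polo-like kinase, had 20.4, 34.8, 26.6 and 72.5 CPM in BTPRZ-T, 35.2, 29.1, 32.9 and 24.5 CPM in BT-T, and 33.3, 11.7, 68.7 and 15.2 CPM in N. BTPRZ-T replicate 4 alone stood above the BT-T range of Plk1 (0.34 ± 0.52, adjusted p = 0.748). Of the mitotic class, the lowest p-values fell to Cenpa, the centromere histone (28.2 ± 17.0 CPM in BTPRZ-T and 11.3 ± 5.23 CPM in BT-T; log2 fold change 1.31 ± 0.71, adjusted p = 0.358), Aurkb, the kinase of the passenger complex (28.5 ± 8.89 and 18.2 ± 4.64 CPM; 0.64 ± 0.37, adjusted p = 0.387) and Ccnb2, cyclin B2 (39.2 ± 16.3 and 23.6 ± 8.57 CPM; 0.73 ± 0.46, adjusted p = 0.424), with Cdk1 next. The lowest value belonged to Bub1b, a spindle checkpoint kinase, with 18.3 ± 1.90 CPM in BTPRZ-T and 24.04 ± 4.92 CPM in BT-T (-0.39 ± 0.37, adjusted p = 0.589). The 5 spindle motors and proteins (Kif11, Kif20a, Kif23, Tpx2, Nusap1) ranged from -0.23 to 0.23, the 6 kinases and checkpoint and passenger genes (Aurka, Aurkb, Bub1, Bub1b, Plk1, Birc5) from -0.39 to 0.92, the APC/C genes Cdc20 and Ube2c from 0.45 to 0.49, and the transcription factors Foxm1 and Mybl2 from 0.19 to 0.31. Plk1 is a gene whose opposite strand held more reads than its own, 15038 against 8208 over all libraries. As for every gene, its own-strand level is the one given.

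The classes were also set against each other within each library. For each library the median log2 deviation from the gene means was taken over the replication and over the mitotic genes. Replication genes stood at 0.349, 0.498, -0.127 and 0.523 in BTPRZ-T, at -0.304, -0.559, -0.066 and -0.517 in BT-T, and at 0.111, 0.394, 0.064 and -0.529 in N. Mitotic genes stood at 0.186, 0.110, -0.304 and 0.337 in BTPRZ-T, at 0.200, -0.307, 0.029 and -0.430 in BT-T, and at -0.007, 0.168, 0.791 and -0.809 in N. The replication median exceeded the mitotic median in all 4 BTPRZ-T libraries (difference 0.163 to 0.388) and lay below it in all 4 BT-T libraries (difference -0.504 to -0.087). In N the difference ran from -0.727 in replicate 3 to 0.28 in replicate 4, so N overlapped with both tumour groups. These medians describe the libraries and carry no test. BTPRZ-T replicate 3 was the lowest BTPRZ-T library for 15 of 22 replication genes and for 15 of 24 mitotic genes; it also had the highest epithelial marker sum of the group and the lowest fibroblast and macrophage sums. BT-T replicate 3 was the highest BT-T library for 16 of 22 replication genes, and BT-T replicate 4 the lowest for 23 of 24 mitotic genes.

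**Figure D4:**
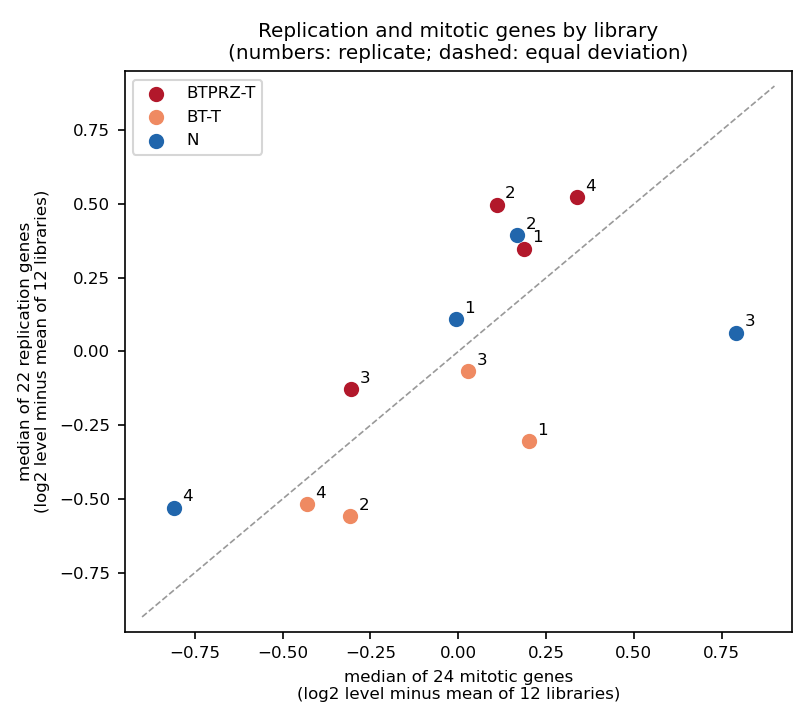
Each point is a library, with the median log2 deviation of the 24 mitotic genes on the x axis and of the 22 replication genes on the y axis; numbers are replicates and the dashed line marks equal deviation. The BTPRZ-T libraries lie above the line, the BT-T libraries below it, and the N libraries on both sides, with N replicate 3 at 0.791 for mitotic genes and N replicate 4 at -0.809.

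Mitotic genes varied more between the N libraries than between those of either tumour group, with or without N replicate 2. The ratio of the highest to the lowest library had a median of 1.98 over the replication genes in BTPRZ-T, 1.51 in BT-T and 2.9 in N (1.67 without N replicate 2). Over the mitotic genes the median ratio was 2.13 in BTPRZ-T, 1.8 in BT-T and 3.91 in N (3.02 without N replicate 2). Among N replicates 1, 3 and 4, replicate 3 was the highest for 23 of 24 mitotic genes, and replicate 4 was the lowest for all 24 mitotic and all 22 replication genes. N replicate 3 also had the highest colonocyte and goblet marker sum of all libraries, 59700 CPM. N replicate 2 was the highest N library for 14 and the lowest for 7 of the 22 replication genes, and it was the highest for 10 and the lowest for 6 of the 24 mitotic genes. Summed over the class, mitotic genes had 875 to 1204 CPM in BTPRZ-T libraries, 716 to 1078 in BT-T libraries and 627 to 1853 in N libraries, and replication genes had 704 to 1152, 521 to 710 and 548 to 1266 CPM in the same order.

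Against normal colon, the D cyclin Ccnd1 rose in both tumour genotypes and was the sole gene of the 48 called with all libraries. Ccnd1 (chr7:144929931-144939925, minus strand), the cyclin that links growth signals to the retinoblastoma protein, had 204.9, 334.8, 253.9 and 315.8 CPM in BTPRZ-T, 214.0, 252.6, 308.7 and 313.1 CPM in BT-T, and 133.7, 44.9, 150.8 and 114.4 CPM in N. Every tumour library stood above every N library, and the tumour groups covered the same range (BTPRZ-T over BT-T 0.03 ± 0.33, adjusted p = 0.97). The log2 fold change was 1.32 ± 0.34 in BTPRZ-T against N (adjusted p = 0.0246) and 1.29 ± 0.34 in BT-T against N (adjusted p = 0.0334). Without N replicate 2, the lowest N library, it was 1.06 ± 0.22 (adjusted p = 0.00391) and 1.03 ± 0.22 (adjusted p = 0.00823). Fitting each tumour group with N alone ended both calls (adjusted p = 0.0949 in BTPRZ-T and 0.0551 in BT-T), and so did adding a replicate term. Leaving out other single libraries ended the call too: BTPRZ-T replicate 2 or 4 or N replicate 4 for BTPRZ-T against N, and BT-T replicate 2, 3 or 4 or N replicate 1 or 4 for BT-T against N. Ccnd2, the second D cyclin of the set, had 427.4, 680.9, 1048.0 and 459.8 CPM in BTPRZ-T, 373.4, 344.5, 461.7 and 575.2 CPM in BT-T, and 343.4, 129.2, 359.6 and 711.3 CPM in N. Its groups overlapped, and it was not called against N (0.76 ± 0.45 in BTPRZ-T, adjusted p = 0.332; 0.19 ± 0.45 in BT-T, adjusted p = 0.854) or between the tumours (0.58 ± 0.45, adjusted p = 0.514). Per kb of transcript, Ccnd2 and Ccnd1 were the most abundant of the 48 genes in BTPRZ-T (103.3 and 74.2 CPM per kb) and in BT-T (69.3 and 72.8 CPM per kb), ahead of Pcna at 58.4 and 31.5 CPM per kb. In N without replicate 2, Ccnd2 and Ccnd1 also led, at 74.5 and 35.5 CPM per kb, ahead of Pcna at 33.9 CPM per kb. With all 4 N libraries Ccnd2 led at 61.0 CPM per kb, Pcna followed at 59.0, and Ccnd1 had rank 5 at 29.7.

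In BT-T against N no gene but Ccnd1 was called. The test called 1 of the 48 genes higher and 0 lower, against 5.67% and 2.9% of all tested genes; at an unadjusted p under 0.05 the counts were 1 higher and 4 lower, against 11.5% and 12.6%; and 1 gene, Ccnd1, had groups that did not overlap, against 13.4% of all tested genes higher and 9.02% lower. Of the 48 genes 39 had a negative log2 fold change and 9 a positive one (44.0% of all tested genes were positive), and the median was -0.43 over the replication and -0.35 over the mitotic genes, beside -0.10 over all tested genes. These medians were, with N replicate 2 left out, -0.25, -0.21 and -0.03. The 4 replication genes with the lowest p-values were Mcm5 (42.0 ± 9.26 CPM in BT-T and 80.2 ± 36.4 CPM in N; -0.93 ± 0.31, adjusted p = 0.0837), E2f2, Ccne2 (-1.71 ± 0.64, adjusted p = 0.125) and Tyms (-1.63 ± 0.61, adjusted p = 0.128). DESeq2 called these 4 lower, where it called 16.1% of all tested genes in either direction. In Mcm5, Ccne2 and Tyms, N replicate 2 was the highest N library, and without it the values were -0.57 ± 0.22 (adjusted p = 0.122), -0.59 ± 0.44 (adjusted p = 0.455) and -0.30 ± 0.27 (adjusted p = 0.56). The mitotic genes with the lowest p-values were Ube2c, which feeds the APC/C (41.5 ± 13.9 CPM in BT-T and 74.8 ± 41.9 CPM in N; -0.85 ± 0.41, adjusted p = 0.232), Cdk1 (-1.11 ± 0.60, adjusted p = 0.281), Birc5, or survivin (-1.16 ± 0.66, adjusted p = 0.298), and Ccna2, cyclin A2 (-0.54 ± 0.32, adjusted p = 0.328). With N replicate 2 left out they were at -0.50 ± 0.38 for Ube2c, -0.06 ± 0.41 for Cdk1, -0.01 ± 0.46 for Birc5 and -0.36 ± 0.31 for Ccna2 (adjusted p = 0.479, 0.96, 0.991 and 0.537).

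Without N replicate 2, 2 E2F genes fell in both tumour genotypes against N. E2f2 had 7.55, 15.7, 12.8 and 9.91 CPM in BTPRZ-T, 13.7, 9.45, 14.03 and 13.2 CPM in BT-T, and 51.2, 12.7, 58.7 and 11.2 CPM in N. The N libraries split into a high pair, replicates 1 and 3, and a low pair, replicates 2 and 4, which lay inside the tumour range, and the groups overlapped. Its log2 fold change was -1.54 ± 0.50 in BTPRZ-T (adjusted p = 0.0683) and -1.41 ± 0.50 in BT-T (adjusted p = 0.108) with all libraries, and -1.81 ± 0.45 (adjusted p = 0.0103) and -1.68 ± 0.44 (adjusted p = 0.0266) without N replicate 2. E2f8 had 17.4, 26.7, 18.2 and 20.5 CPM in BTPRZ-T, 18.7, 17.1, 22.2 and 17.9 CPM in BT-T, and 43.9, 4.33, 58.9 and 23.2 CPM in N. Without N replicate 2, it was -1.02 ± 0.28 in BTPRZ-T (adjusted p = 0.016) and -1.15 ± 0.28 in BT-T (adjusted p = 0.0168), and the BT-T libraries all lay below the other N libraries. With all libraries it was -0.66 ± 0.53 (adjusted p = 0.507) and -0.78 ± 0.54 (adjusted p = 0.401). In the fit without N replicate 2, 2 of the 48 genes were called lower in each comparison, against 15.7% of all tested genes in BTPRZ-T and 5.7% in BT-T. In BT-T, 7.79% of all tested genes were called higher in that fit.

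In BTPRZ-T against N, the test called 1 of the 48 genes higher, Ccnd1, and 0 lower, against 5.66% and 6.18% of all tested genes. Groups did not overlap in 2 genes, Ccnd1 and Mcm4, both higher in BTPRZ-T, against 6.88% of all tested genes higher and 7.64% lower. At an unadjusted p under 0.05, 4 were higher and 1 lower, against 11.4% and 14.1%, and 25 of the 48 were positive, against 43.2%. The median log2 fold change was 0.39 over the replication genes and -0.12 over the mitotic genes, beside -0.10 over all tested genes, and without N replicate 2 these were 0.45, -0.03 and 0.01. Mcm4 had 53.1, 84.3, 58.6 and 73.2 CPM in BTPRZ-T, 39.7, 38.5, 54.7 and 40.6 CPM in BT-T, and 51.1, 31.1, 46.7 and 44.5 CPM in N (BTPRZ-T over N 0.64 ± 0.23, adjusted p = 0.0949; 0.0648 without N replicate 2). E2f1 was at 0.83 ± 0.36 (adjusted p = 0.164) and Cdt1 at 0.60 ± 0.27 (adjusted p = 0.182). The mitotic genes with the lowest p-values, Bub1b (-0.51 ± 0.37, adjusted p = 0.449), Ccnb1 (-0.66 ± 0.49, adjusted p = 0.454), Kif23 (0.39 ± 0.29, adjusted p = 0.455) and Mki67 (-0.59 ± 0.44, adjusted p = 0.459), were far from the threshold. Bub1b was, with N replicate 2 left out, at -0.69 ± 0.35 (adjusted p = 0.152), Ccnb1 at -0.05 ± 0.40 (adjusted p = 0.935), Kif23 at 0.25 ± 0.27 (adjusted p = 0.496) and Mki67 at -0.88 ± 0.34 (adjusted p = 0.0673). Without N replicate 2, 5 of the 48 genes were called higher and 2 lower, against 16.6% and 15.7% of all tested genes. Beside Ccnd1 the higher ones were Gmnn (2.27 ± 0.40, adjusted p = 0.00172), Rrm2 (1.18 ± 0.33, adjusted p = 0.0178), Pcna (0.79 ± 0.23, adjusted p = 0.0235) and Tk1 (1.40 ± 0.44, adjusted p = 0.0298). With all libraries, Pcna stood at -0.01 ± 0.44 (adjusted p = 0.99) and Gmnn at 0.76 ± 0.69 (adjusted p = 0.557); both had their highest N level in replicate 2. Both comparisons with N share the same N libraries, so their values stand side by side and were not correlated.

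Gmnn was at -1.48 ± 0.70 in BT-T against N (adjusted p = 0.219) and Pcna at -0.91 ± 0.44 (adjusted p = 0.235); without N replicate 2, these were 0.04 ± 0.38 (adjusted p = 0.969) and -0.11 ± 0.23 (adjusted p = 0.842). Against N, Mcm2 was at 0.52 ± 0.25 in BTPRZ-T (adjusted p = 0.227) and -0.34 ± 0.25 in BT-T (adjusted p = 0.451), and Mcm6 at 0.42 ± 0.24 (adjusted p = 0.307) and -0.31 ± 0.24 (adjusted p = 0.466) in the same order. BTPRZ-T values of both subunits were positive and BT-T values negative, and neither passed the threshold. Ccne1 was at 0.35 ± 0.39 in BTPRZ-T (adjusted p = 0.645) and -0.63 ± 0.39 in BT-T (adjusted p = 0.344). Top2a was at 0.19 ± 0.32 in BTPRZ-T (adjusted p = 0.794) and -0.15 ± 0.32 in BT-T (adjusted p = 0.828), Plk1 at 0.26 ± 0.52 (adjusted p = 0.826) and -0.08 ± 0.52 (adjusted p = 0.949), and E2f7 at 0.40 ± 0.66 (adjusted p = 0.784) and 0.34 ± 0.66 (adjusted p = 0.809). None of these was called without N replicate 2. Mcm2 was then at 0.62 in BTPRZ-T and -0.23 in BT-T, Mcm6 at 0.33 and -0.39, and Ccne1 at 0.51 and -0.47. Top2a was at 0.04 and -0.30, Plk1 at -0.02 and -0.36, and E2f7 at -0.002 and -0.055. Leaving out that library also moved Cenpa from 0.18 to 1.40 in BTPRZ-T and from -1.13 to 0.09 in BT-T. Ccne2 moved from -1.19 to -0.08 in BTPRZ-T. Of the 48 genes, 13 changed sign without N replicate 2 in BTPRZ-T against N and 9 in BT-T against N, among them Tyms (0.46 ± 0.27, adjusted p = 0.211), Cdk1 (0.82 ± 0.41, adjusted p = 0.144) and Birc5 (0.90 ± 0.47, adjusted p = 0.157) in BTPRZ-T and Rrm2 (0.27 ± 0.32, adjusted p = 0.685) in BT-T.

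Other genes of the same pathways, from wider lists of textbook members, were counted in the same fits. Of 40 further replication genes (origin recognition, GINS, polymerase, clamp loader and chromatin assembly subunits among them), 38 had a positive log2 fold change in BTPRZ-T against BT-T, with a median of 0.70; 0 were called with all libraries, against 0.754% of all tested genes, and 13 had an unadjusted p under 0.05, all higher, against 7.12%. Without N replicate 2, 17 were called higher and 0 lower, against 9.81% and 8.23% of all tested genes. Pola2, the B subunit of polymerase alpha, had 40.1, 42.7, 30.2 and 39.1 CPM in BTPRZ-T, 18.4, 17.3, 25.7 and 18.7 CPM in BT-T, and 37.0, 28.8, 33.0 and 22.4 CPM in N (BTPRZ-T over BT-T 0.93 ± 0.23, adjusted p = 0.0834; 0.0129 without N replicate 2). Pold1, the catalytic subunit of polymerase delta, gave 0.96 ± 0.24 (adjusted p = 0.0853; 0.0138 without N replicate 2). Fen1, the flap nuclease, gave 1.02 ± 0.28 (adjusted p = 0.0989; 0.0107 without N replicate 2). None of these 3, picked by lowest p, overlapped between the tumours. Of all 40, 14 lay higher in BTPRZ-T without overlap and 0 lower, against 11.5% and 12.7% of all tested genes. Of 50 further mitotic genes, 41 were positive with a median of 0.28, and 0 were called, against 0.754% of all tested genes. Without N replicate 2, 3 of the 50 were called higher (Cks1b, Mad2l1 and Pttg1) and 1 lower (Hjurp). The share called higher was 6%, against 9.81% of all tested genes, and 8.23% of all tested genes were called lower.

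Against N, 2 of the 40 further replication genes fell in BT-T, Mcm10, an origin firing factor (8.94 ± 1.19 CPM in BT-T and 20.7 ± 6.78 CPM in N; -1.21 ± 0.28, adjusted p = 0.0201), and Pold2, a polymerase delta subunit (24.8 ± 3.44 and 47.1 ± 11.9 CPM; -0.93 ± 0.24, adjusted p = 0.0288), and none was called in BTPRZ-T; of all tested genes, 2.9% were called lower in BT-T. Without N replicate 2, 11 of them rose in BTPRZ-T and 0 fell, against 16.6% and 15.7% of all tested genes, and in BT-T 1 rose (Prim2, a primase subunit) and the same 2 fell, Mcm10 at -1.06 ± 0.26 (adjusted p = 0.0187) and Pold2 at -0.81 ± 0.21 (adjusted p = 0.0249). Hjurp, the chaperone that loads the centromere histone, had 5.68, 5.17, 7.55 and 8.16 CPM in BTPRZ-T, 13.6, 12.2, 11.7 and 10.4 CPM in BT-T, and 31.4, 17.7, 37.2 and 24.6 CPM in N. With all libraries it was the one further mitotic gene called against N, and it fell in both genotypes, by 2.06 ± 0.29 on the log2 scale in BTPRZ-T (adjusted p = 0.000983) and by 1.21 ± 0.28 in BT-T (adjusted p = 0.0186), with 3 separate ranges of levels. That was 1 of the 50 further mitotic genes, against 6.18% of all tested genes called lower in BTPRZ-T and 2.9% in BT-T. Hjurp also fell with N replicate 2 left out, by 2.23 ± 0.23 in BTPRZ-T (adjusted p = 0.000101) and by 1.37 ± 0.23 in BT-T (adjusted p = 0.00249). In that fit Cks1b, a CDK binding protein (2.22 ± 0.44, adjusted p = 0.00361), and Mad2l1, of the spindle checkpoint (1.26 ± 0.43, adjusted p = 0.0435), rose in BTPRZ-T against N. Of the 50 genes 4% were thus called higher and 1 gene lower in BTPRZ-T, against 16.6% and 15.7% of all tested genes.

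Of 25 genes of G1 control, 2 rose and 2 fell in BTPRZ-T against N, 1 rose in BT-T against N, and 1 fell in BTPRZ-T against BT-T. In BTPRZ-T against N, 5.66% of all tested genes rose and 6.18% fell. In BT-T against N, 5.67% rose and 2.9% fell. Between the tumours, 0.754% of all tested genes were called in either direction. In the fit without N replicate 2, 5 of the 25 rose and 4 fell in BTPRZ-T against N (16.6% and 15.7% of all tested genes), 1 rose and 1 fell in BT-T against N (7.79% and 5.7%), and 5 rose and 2 fell in BTPRZ-T against BT-T (9.81% and 8.23%). Cdkn2a rose against N in both genotypes, by 6.38 ± 0.39 on the log2 scale in BTPRZ-T (adjusted p = 8.48e-06) and by 5.24 ± 0.37 in BT-T (adjusted p = 2.86e-05). Between the tumours it was at 1.14 ± 0.29 (adjusted p = 0.0905; 0.0158 without N replicate 2). Cdkn1c, which encodes the CDK inhibitor p57, had 3.55, 2.54, 2.97 and 5.63 CPM in BTPRZ-T, 11.3, 17.5, 12.4 and 33.0 CPM in BT-T, and 14.3, 10.8, 11 and 17.5 CPM in N. BTPRZ-T lay below every other library, and the gene fell against BT-T (-2.33 ± 0.41, adjusted p = 0.0324) and against N (-1.86 ± 0.40, adjusted p = 0.0108). Rb1, the retinoblastoma gene, had 28.5, 37.5, 39.4 and 16.4 CPM in BTPRZ-T, 51.5, 50.9, 52.2 and 57.5 CPM in BT-T, and 89.9, 27.3, 101 and 81.7 CPM in N. It fell in BTPRZ-T against N (-1.30 ± 0.37, adjusted p = 0.04), and N replicate 2 lay inside the BTPRZ-T range; without that library it was at -1.58 ± 0.25 (adjusted p = 0.000971). Myc, a growth regulator, averaged 160 ± 35.3 CPM in BTPRZ-T, 112 ± 7.02 CPM in BT-T and 71.2 ± 40.7 CPM in N, and rose in BTPRZ-T against N (1.17 ± 0.33, adjusted p = 0.0373).

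Values varied with transcript length. Across the 48 genes, the log2 ratio of N replicate 2 to the mean of the other N libraries fell with log2 transcript length (Pearson r = -0.506, Spearman rho = -0.527), and so did the log2 fold change of BTPRZ-T over BT-T (r = -0.522, rho = -0.439). These correlations are descriptions over genes that share libraries, and genes are not independent replicates. Replication transcripts were somewhat shorter than mitotic ones, with a median longest transcript of 3322 bases against 3588 bases. Within the replication class, the 11 shorter genes had a median log2 fold change of 0.81 in BTPRZ-T against BT-T, with 11 positive, and the 11 longer genes had 0.72, with 10 positive. With the trend on length removed from each library before the fit, the median was 0.70 over the replication genes and 0.30 over the mitotic genes. In that fit 0 of the 48 genes were called. With N replicate 2 left out as well, 12 of the 48 genes were called, all higher in BTPRZ-T, against 7.98% of the 14389 genes tested there called higher and 6.15% lower.

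**Figure D5:**
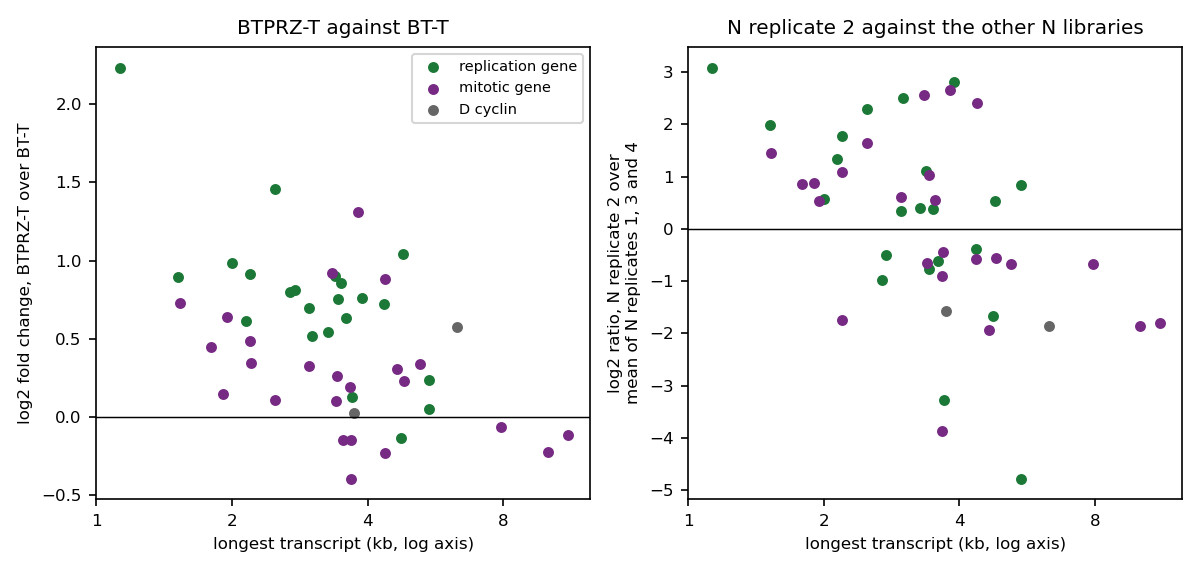
Each point is 1 of the 48 genes against the length of its longest transcript in kb (log axis); the left panel gives the log2 fold change of BTPRZ-T over BT-T and the right panel the log2 ratio of N replicate 2 to the mean of the other N libraries. Both fall with length (r = -0.522 and -0.506); on the left, 21 of 22 replication genes lie above 0.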

How the data were processed

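RNA of 12 mouse libraries was measured (4 BTPRZ-T, 4 BT-T, 4 N). Poly(A) RNA was made into stranded libraries and read as single ends on a HiSeq, per the labels' protocols. Per the submitters' processing notes, bcl2fastq 2.20, STAR 2.4.2a, HTSeq, edgeR 3.16.5, limma and the mm10 genome were used, and an annotation version was not given in the sources used here. Deposited files hold raw read counts per gene symbol with no normalization by the authors, in the layout of STAR's gene counts. Reads counted to no gene or to several took 13.1 to 18.7% of mapped reads and stayed out of all totals. The strand with more reads was used; the opposite strand held 0.819 to 0.994% as many.

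Genes were kept by filterByExpr, scaled by TMM and fitted in edgeR 4.0.16 (R 4.3.3; glmQLFit with robust estimation, glmQLFTest, two-sided) with 1 mean per group over all 12 libraries. P-values were adjusted by Benjamini-Hochberg over all 14860 tested genes, and an adjusted p under 0.05 was called. Common dispersion corresponded to a biological coefficient of variation of 0.501. A ± is the standard error for log2 fold changes and the SD over 4 libraries for levels. Depth enters through the count model, so standard errors cover counting error and the spread between libraries. No pair of libraries agreed within sampling noise. The fit was tested on simulated counts. Positions and lengths are from GENCODE M21 (GRCm38), matched by symbol; 14208 of the tested genes have a length.

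The 48 genes and all lists were chosen with earlier results of these data known. Levels and the fold change between the tumours are given for a fixed set of 18 genes, whose fold changes against N are printed only in part. Values are also given for up to 4 replication and 4 mitotic genes with the lowest p and both D cyclins in each comparison. Of each wider list, up to 3 genes by lowest p are given. Others are given by range, and genes called only without N replicate 2 were named after their values were seen. For 4 list symbols the older symbol in the files was taken. Alternatives tried were upper quartile and RLE factors, no filter, 2 CPM in 4 libraries, DESeq2 1.42.0, limma 3.58.1 with voom, the unstranded counts, the compared groups alone, a replicate term, no robust estimation, removal of a length trend, leaving out each library, and leaving out N replicate 2 with BTPRZ-T replicates 1 and 4. The length trend with N replicate 2 left out was added after the data were examined. Deviations of same-numbered libraries from their group means correlated at r = -0.297 to 0.315. The labels do not say whether the numbers pair the samples, and the fit described has no replicate term. Correlations that include N also carry the deviation of N replicate 2, and only 4 same-numbered pairs join BTPRZ-T and BT-T. The correlations therefore cannot decide the question.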

Additional observations from a re-analysis of the deposited data

Results flagged for a closer look

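Within groups of 4 libraries, 9 of 144 gene levels had 1 library whose gap to the rest exceeded the 95% critical value of Dixon's test; chance alone gives about 1 in 20. In 5 of them the library was N replicate 2. It was the highest N library in Ccne2 (43.0 CPM, others 4.59 to 9.81), Gmnn (43.2, others 4.12 to 5.93), Pcna (204.0, others 42.1 to 60.9) and Tyms (170.0, others 18.3 to 30.1), and the lowest in Cdt1 (14, others 26.6 to 28.5). In BT-T, replicate 3 was the highest for Cdc6 (9.74 CPM, others 6.23 to 6.83) and Mcm4 (54.7, others 38.5 to 40.6). BT-T replicate 1 was the highest for Tyms (26.2, others 16.9 to 17.9) and the lowest for E2f1 (7.77, others 10.2 to 10.4).

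On the strand opposite to Kif20a, a mitotic kinesin, every BTPRZ-T library held more reads (4.9 to 8.47 CPM) than every N library (3.59 to 4.12 CPM). These reads enter no comparison, and this was the sole such case among the 48 genes in either tumour genotype. The share over all genes is not given for the opposite strand. On the counted strand, 6.88% of all tested genes lay above N without overlap in BTPRZ-T and 13.4% in BT-T.

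The change against N differed between the tumour genotypes in Cdkn1c, by -2.33 on the log2 scale in BTPRZ-T against BT-T (adjusted p = 0.0324 by edgeR).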

How the results depend on the processing

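Over 25 alternatives, the median log2 fold change in BTPRZ-T against BT-T ran from 0.65 to 0.89 over the replication genes and from 0.07 to 0.38 over the mitotic genes. In BTPRZ-T against N it ran from 0.17 to 0.52 and from -0.33 to 0.15, so the mitotic median changed sign; in BT-T against N from -0.65 to -0.18 and from -0.54 to -0.05. The number of the 48 genes called moved more. In BTPRZ-T against BT-T it was 0 in the fit described, 5 with both groups alone, 4 by DESeq2 and 0 with the length trend removed. It was 6 without N replicate 2 and BTPRZ-T replicates 1 and 4, and 12 with the length trend removed and N replicate 2 left out. With 1 library left out it was 0 to 9, 9 without N replicate 2 and 0 without any other. In BTPRZ-T against N it was 1, then 0 with both groups alone, 3 by DESeq2, 4 with the length trend removed, 3 without those 3 libraries, 8 with length and N replicate 2 removed, and 0 to 7 with 1 library left out. In BT-T against N it was 1, then 0, 5, 2, 3 and 3 under the same alternatives and 0 to 3 with 1 library left out. With the replicate block, 0 genes were called in each comparison. Whether the numbers pair the samples is not stated in the labels. Among values called in either fit, 1 changed sign: Pcna in BTPRZ-T against N, 0.79 without N replicate 2 and -0.25 to 0.79 with 1 library left out; without N replicate 2, 13 of the 48 values in BTPRZ-T against N and 9 in BT-T against N changed sign, called or not. RLE and upper quartile factors changed no count of called genes. Depth limited few genes: N replicate 2 held 4 reads of E2f7.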

Other observations

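Reads on the strand opposite to Plk1 numbered 15038 over the 12 libraries, against 8208 on its own strand, while over all 48 genes the opposite strand held 3.4% as many reads. The neighbouring gene Ern2 (chr7:122169893-122186207, minus strand) has its 3′ end just past the end of Plk1 (chr7:122159439-122169873, plus strand), with both positions from GENCODE M21. Ddx3y, a gene of the Y chromosome, reached 1 CPM in 1 of 4 BTPRZ-T, 3 of 4 BT-T and 3 of 4 N libraries.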
